A study of Homo sapiens with 18 samples.

Results

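Occupancy of the AML1-ETO fusion protein was examined at the genes of 7 growth factor receptors of blood progenitors: KIT, FLT3, CSF1R, CSF3R, CSF2RB, EPOR and IL6R. These genes were chosen by function, with earlier results of these data known. A peak was counted for a gene when any of its bases fell inside the gene or up to 10 kb beyond either end (RefSeq genes, GRCh38.p14). They are 7 of 19974 protein-coding genes. Together they held 79 of the 85981 peaks in 4 single-antibody peak lists, and these peaks merged into 28 of 35622 regions.

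The cells were Kasumi-1, an acute myeloid leukaemia line with the t(8;21) translocation, carrying AML1-ETO with a Flag tag. They were transduced either as control or for knock-down of the microRNA miR-130a, sorted as viable GFP+ cells 3 days later, and profiled by CUT&RUN, in which an antibody tethers a nuclease that releases the DNA around its target. Each condition was profiled with anti-ETO, anti-Flag and mouse IgG, giving 6 groups of 3 libraries, and every group shares the line, the tagged fusion, the transduction and the sort. The content of the control vector, and whether the tagged line is 1 clone, are not given in the sources used here. Anti-ETO can bind the fusion with or without its tag, whereas anti-Flag sees only the tagged protein. The values are positions of peaks, with 1 list per antibody and condition and no score, height or replicate, so no spread over libraries and no test of a condition could be had. A missing call does not show a missing site.

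Growth factor receptors sit on the surface of blood progenitors and pass on the signals for survival, division and maturation. KIT, FLT3 and CSF1R are related receptor tyrosine kinases, which phosphorylate themselves and their partners when a ligand joins them in pairs. CSF3R, CSF2RB, EPOR and IL6R are cytokine receptors without kinase activity, which signal through bound JAK kinases and STAT factors, in the case of IL6R by way of the subunit IL6ST. RUNX1, whose DNA-binding domain is kept in AML1-ETO, is a textbook regulator of the CSF1R gene, and activating KIT mutations are frequent in t(8;21) leukaemia.

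The promoter sequences give the bases just before the gene starts, which some of the calls covered in part or in whole. The control anti-ETO call at KIT began inside the gene and covered none of them. The table of promoters had 8 entries for the 7 genes (2 each for CSF1R and CSF3R, and none matched CSF2RB). The 4 promoters that overlapped a peak in any list, KIT, FLT3, EPOR and IL6R, are given with that of the inner start of CSF1R, which overlapped none. Each run holds the 250 bases before the start, from RefSeq on GRCh38.p14, read 5′ to 3′ on the gene's strand. They lie at chr4:54657707-54657956 (+) for KIT, chr13:28100577-28100826 (-) for FLT3, chr19:11384315-11384564 (-) for EPOR, chr1:154405093-154405342 (+) for IL6R and chr5:150086555-150086804 (-) for CSF1R. Capitals mark matches to the motifs searched, except in KIT, which held none, where the 78 capitals mark the bases inside the anti-Flag peak called after knock-down.
KIT: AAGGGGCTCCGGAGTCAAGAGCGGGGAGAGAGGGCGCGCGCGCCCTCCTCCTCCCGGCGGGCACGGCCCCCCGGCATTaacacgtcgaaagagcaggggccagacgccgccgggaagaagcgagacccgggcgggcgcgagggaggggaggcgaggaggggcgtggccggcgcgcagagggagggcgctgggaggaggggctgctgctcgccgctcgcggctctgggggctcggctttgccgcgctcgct
FLT3: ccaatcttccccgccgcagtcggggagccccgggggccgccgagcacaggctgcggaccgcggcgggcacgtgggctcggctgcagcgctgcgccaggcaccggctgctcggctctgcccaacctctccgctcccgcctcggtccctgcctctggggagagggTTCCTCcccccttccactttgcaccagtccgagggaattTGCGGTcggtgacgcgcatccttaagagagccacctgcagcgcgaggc
EPOR: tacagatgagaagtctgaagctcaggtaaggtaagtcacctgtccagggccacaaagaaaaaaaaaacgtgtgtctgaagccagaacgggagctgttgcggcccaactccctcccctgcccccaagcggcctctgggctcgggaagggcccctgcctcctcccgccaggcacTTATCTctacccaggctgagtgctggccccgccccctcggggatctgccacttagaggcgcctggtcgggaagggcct
IL6R: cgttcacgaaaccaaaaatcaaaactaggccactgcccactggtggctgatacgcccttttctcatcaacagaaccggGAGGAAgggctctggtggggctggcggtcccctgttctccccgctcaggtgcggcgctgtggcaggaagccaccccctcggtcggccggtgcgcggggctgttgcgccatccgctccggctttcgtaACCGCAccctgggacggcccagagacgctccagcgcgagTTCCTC
CSF1R: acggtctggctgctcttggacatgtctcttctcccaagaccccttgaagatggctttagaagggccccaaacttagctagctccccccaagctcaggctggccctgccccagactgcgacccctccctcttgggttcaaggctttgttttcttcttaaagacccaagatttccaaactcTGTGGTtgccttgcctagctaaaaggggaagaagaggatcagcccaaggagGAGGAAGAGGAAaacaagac

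The motifs were short binding cores of blood factors, searched on both strands in the 250 bases of 22132 promoters of protein-coding genes. The core bound by RUNX factors, TGTGGT, occurred in 9.36% of these promoters. Its variant TGCGGT occurred in 6.82%, and at least 1 of both forms in 15.6%. The core bound by PU.1, searched as GAGGAA, occurred in 23.7%. An E-box, CAGCTG, which reads the same on both strands, occurred in 13.7%. The core of the GATA factors, AGATAA, was found in 7.08%, and the site of AP-1, TGAGTCA, in 3.45%. The inner CSF1R promoter held TGTGGT beginning 71 bases before the start, and GAGGAA beginning 20 and 14 bases before it. The FLT3 promoter held TGCGGT 48 bases before the start and GAGGAA, on the other strand, 87 bases before it. The IL6R promoter held TGCGGT on the other strand 45 bases before the start and GAGGAA at 172 bases and, on the other strand, at 6 bases. The only match in the EPOR promoter was AGATAA on the other strand, 78 bases before the start. The outer CSF1R promoter held CAGCTG at 133 and 65 bases and TGAGTCA at 34 bases, the inner CSF3R promoter held GAGGAA at 111 bases, and the outer CSF3R promoter held none of the 6. These are matches of letters and not shown to be bound sites. The KIT bases were 76.4% G or C, FLT3 72.0%, IL6R 65.2%, EPOR 62.0% and inner CSF1R 53.2%.

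Of the 7 genes, 6 had a peak with at least 1 antibody in 1 condition, and the common cytokine receptor subunit CSF2RB had none in any list. Control anti-ETO peaks lay at 5 of the 7 genes (71.4%), against 47.6% of all protein-coding genes. Control anti-Flag peaks lay at 6 (85.7%), against 50.2% of all genes. After knock-down, anti-ETO peaks lay at 6 genes (85.7%), against 53.8%, and anti-Flag peaks at 4 (57.1%), against 42.2%. The members' share was thus above that of all genes in each of these 4 lists, although with 7 genes of unequal length a single gene moves it by a large step. The 4 lists count the same 7 genes, and no interval or test was computed for these shares. CSF3R counted through flank peaks only. With the gene body only, the numbers were 4, 5, 5 and 4 genes, in the same order of lists. The authors also deposited 3 derived lists of sites where the 2 antibodies coincided, named as shared by the conditions, unique to control (C-Unique) or unique to knock-down (KD-Unique). The shared list had peaks at 4 genes (57.1%), against 35.1% of all genes, the C-Unique list at 1 (14.3%), against 16.9%, and the KD-Unique list at 3 (42.9%), against 18.4%.

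**Figure D1:**
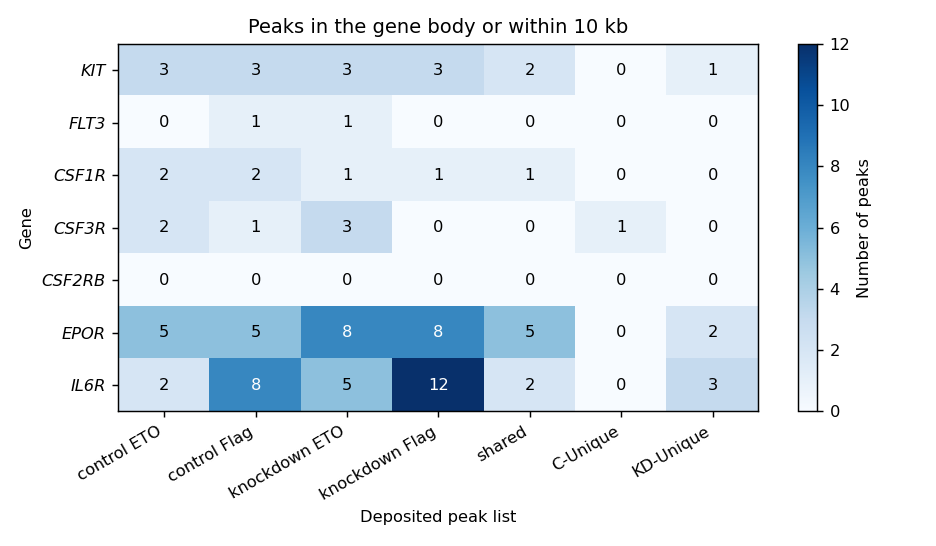
Number of peaks (cell value and colour) in the body or within 10 kb of each of the 7 genes (rows) in the 4 single-antibody and 3 derived lists (columns). EPOR and IL6R hold the most, up to 12 for IL6R with anti-Flag after knock-down, and CSF2RB holds 0 throughout.

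The numbers of peaks were 14 with anti-ETO and 20 with anti-Flag in control, and 21 with anti-ETO and 24 with anti-Flag after knock-down. The ratio of knock-down to control was therefore 1.5 for anti-ETO and 1.2 for anti-Flag. Over the whole lists these ratios were 1.58 (22594 against 14264 peaks) and 1.12 (25961 against 23162), so the numbers at the receptor genes moved about as the lists did. The derived lists held 10 shared peaks, 1 C-Unique peak and 6 KD-Unique peaks at these genes, and the whole KD-Unique list was 1.51 times as long as the C-Unique list. Most of the 79 single-antibody peaks belonged to IL6R (27) and EPOR (26), followed by KIT (12), with 6 each at CSF1R and CSF3R and 2 at FLT3.

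**Figure D2:**
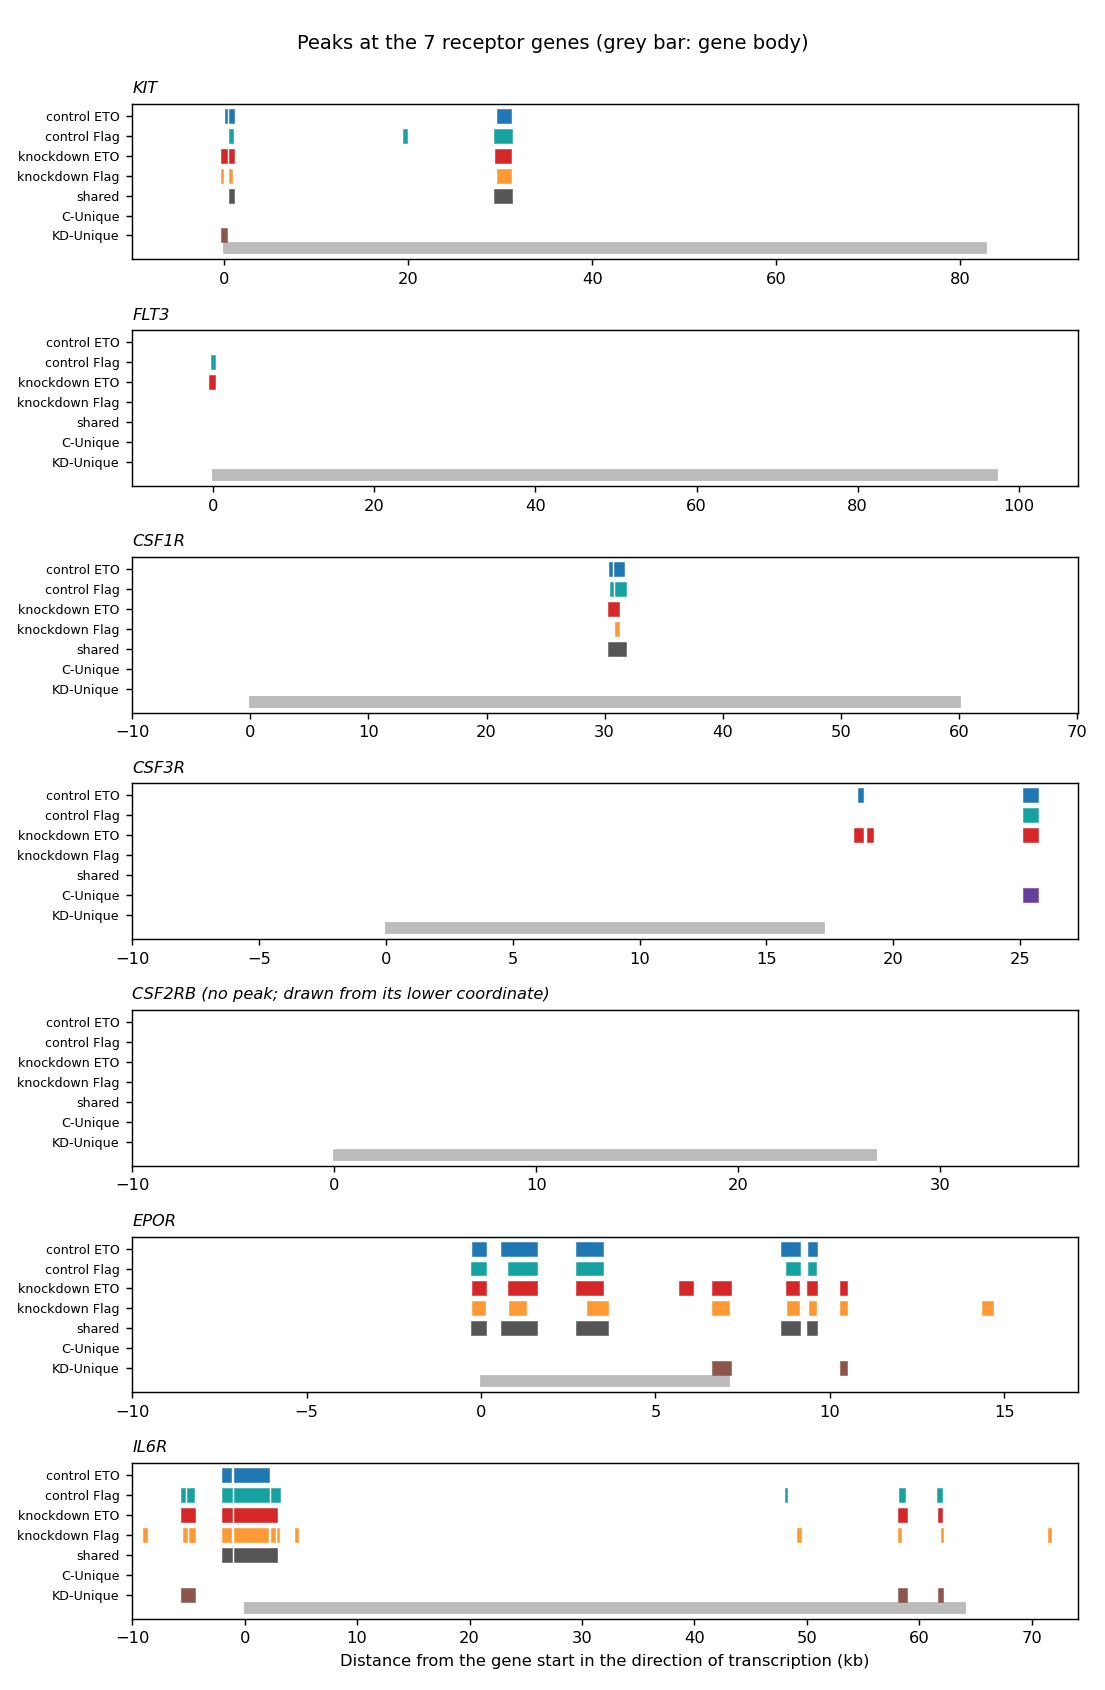
Position of every peak at the 7 genes, with distance from the gene start in kb along the direction of transcription on the x axis, 1 row per list, and the gene body as a grey bar (peaks are outlined thinly, so short gaps may not show). KIT, FLT3, EPOR and IL6R have peaks at the start, CSF1R has them only about 31 kb inside, and those of CSF3R lie beyond its far end. For CSF2RB, whose strand was not read here, distance is from its lower coordinate.

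The 28 regions fell unevenly over the genes, with 10 at IL6R, 9 at EPOR, 4 at KIT, 3 at CSF3R and 1 each at FLT3 and CSF1R. Of these, 17 touched the gene body and 11 lay in a flank. Of the 11, 8 lay nearer to another protein-coding gene than to the receptor gene, and 5 of these 8 lay inside that gene. The neighbours were MRPS15 beside CSF3R, SWSAP1 and PLPPR2 beside EPOR, and SHE beside IL6R, and which gene such a site acts on was not tested. In all, 10 of the 28 regions (35.7%, 95% Wilson interval 20.7 to 54.2) were called in all 4 lists, against 24.8% of all regions, and 9 (32.1%, 17.9 to 50.7) in 1 list only, against 44.3%. Both intervals contain the share over all regions. With a window of 50 kb the share called in all 4 lists was 19.7% of 66 regions, below that of all regions. The intervals cover counting error only, since regions of 1 gene share their libraries.

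Among the receptor tyrosine kinases, KIT had 3 peaks in each of the 4 lists, in 4 regions that all touched the gene body. As many or more peaks were found at 13.7% (anti-ETO) and 22.9% (anti-Flag) of protein-coding genes in control. After knock-down these shares were 23.2% and 21.6%. KIT binds stem cell factor and is needed by blood stem cells and mast cells. The longest region, at chr4:54687223-54689267, lay about 30 kb inside the gene and was called in all 4 lists. Its peaks were 1575 bp (anti-ETO) and 2045 bp (anti-Flag) wide in control, and 1781 and 1507 bp after knock-down. By width these peaks stood between percentiles 94.3 and 97.6 of their lists. A second region in all 4 lists, chr4:54658427-54659043, began 0.470 kb inside the gene, and its anti-ETO peak had the same start and end in both conditions (617 bp). A region about 20 kb inside, chr4:54677408-54677825, was called with anti-Flag in control alone.

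At the KIT start itself the calls differed between the conditions. In control, anti-ETO called 235 bp at chr4:54657986-54658220, beginning 29 bp inside the gene, and anti-Flag called nothing. After knock-down, anti-ETO called 592 bp at chr4:54657632-54658223, beginning 325 bp before the gene start and so crossing it. The anti-Flag call after knock-down was a peak of 189 bp, chr4:54657596-54657784, which ended 173 bp before the gene start and was narrower than most of its list (percentile 11.1). Because both antibodies then had a call, the KD-Unique list holds the site as chr4:54657596-54658223. The new anti-Flag peak and the control anti-ETO peak did not overlap, being 201 bp apart, and they meet only through the wider anti-ETO peak. The KIT promoter window (250 bases before and 50 after the start) was covered over 21 bases by the control anti-ETO peak and over all 300 by the anti-ETO peak after knock-down.

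FLT3, the receptor for FLT3 ligand and one of the most often mutated genes in acute myeloid leukaemia, had 1 region in a gene of 97.3 kb. It lay across the start, at chr13:28100349-28101102. Anti-Flag called it in control (504 bp) and anti-ETO after knock-down (754 bp), and each covered the whole 300-base promoter window. Neither condition had both antibodies, so FLT3 had no peak in any derived list. This pattern, control anti-Flag with anti-ETO after knock-down and no other call, was found in 1337 of all regions (3.75%).

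CSF1R, the receptor for macrophage colony-stimulating factor that marks the monocyte lineage, had 1 region, chr5:150081528-150083051, called in all 4 lists and present in the shared list. The region lay in the gene body, 30.3 to 31.8 kb from the outer start and 3503 bp beyond the inner start. In control, each antibody had 2 peaks there, of 805 and 294 bp with anti-ETO and of 975 and 258 bp with anti-Flag. After knock-down each had 1, of 927 bp with anti-ETO and of 318 bp with anti-Flag. The number of bases called with anti-Flag was thus 0.258 times that in control, the lowest ratio among the receptor regions, while the ratio with anti-ETO was 0.843. Neither CSF1R promoter window overlapped a peak in any list, although the inner one carries the TGTGGT and GAGGAA matches printed above. Peak counts like those of CSF1R were common. As many or more were found at 25.9% (anti-ETO) and 33.8% (anti-Flag) of protein-coding genes in control, and at 53.8% and 42.2% after knock-down.

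**Figure D3:**
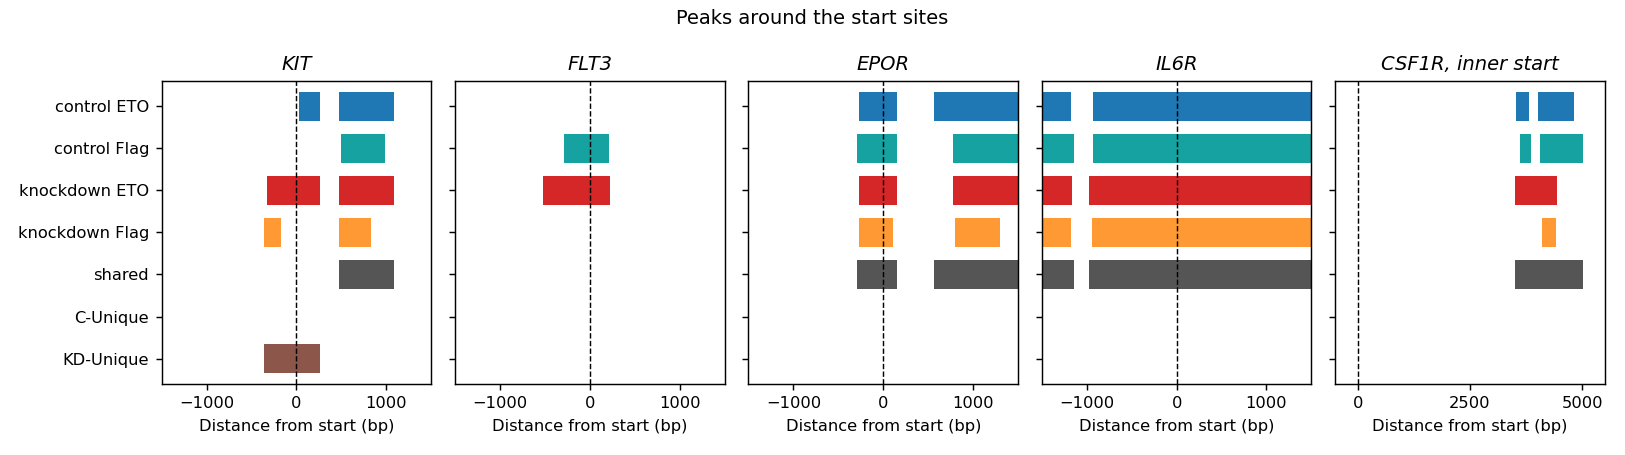
Peaks (bars, 1 row per list) against distance in bp from the gene start (dashed line) for KIT, FLT3, EPOR and IL6R, and from the inner start for CSF1R on its own scale. At KIT the start is crossed only after knock-down, at FLT3 by control anti-Flag and knock-down anti-ETO, and at EPOR and IL6R by all 4 single-antibody lists.

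Among the cytokine receptors, CSF3R binds granulocyte colony-stimulating factor and drives neutrophil production. None of its 3 regions touched the gene body, and the nearest peak lay 18068 bp from its inner start and 18469 bp from its outer one. CSF3R had 2 anti-ETO peaks and 1 anti-Flag peak in control, and 25.9% and 50.2% of protein-coding genes had as many or more. For its 3 anti-ETO peaks after knock-down this share was 23.2%. The 592-bp C-Unique peak, chr1:36457625-36458216, is the only C-Unique peak at any of the 7 genes, and it lay inside the neighbouring mitochondrial ribosomal protein gene MRPS15. Anti-ETO called 570 bp there in control and 567 bp after knock-down, beginning at the same base, while anti-Flag called 592 bp in control and nothing after knock-down. The site is therefore unique to control through the anti-Flag call alone. The other 2 regions, at chr1:36464134-36464341 and chr1:36464502-36464845, overlapped MRPS15 or lay within 143 bp of it, and carried anti-ETO calls only (208 bp after knock-down at the first, 188 bp in control and 319 bp after knock-down at the second). By width, these calls of 208, 188 and 319 bp stood low in their lists, at percentiles 11.2, 6.48 and 25.5. No anti-Flag peak was called in the CSF3R window after knock-down.

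CSF2RB, the signalling subunit shared by the receptors for IL-3, IL-5 and GM-CSF, had 0 peaks in all 7 lists. Its gene body with flanks spans 46.8 kb on chr22. The nearest peak to the gene lay 39.6 kb away with anti-ETO after knock-down, 52.4 kb away with anti-Flag in both conditions and 79.7 kb away with anti-ETO in control. Such an absence was common, as 41.6% of the other protein-coding genes also had no peak in any of the 7 lists.

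EPOR, the erythropoietin receptor that carries red cell precursors through their maturation, had the shortest gene of the 7 (7.11 kb) and 26 peaks. It had 5 peaks with each antibody in control and 8 with each after knock-down. Among all protein-coding genes, 4.0% had as many or more control anti-ETO peaks, 10.9% as many control anti-Flag peaks, 3.38% as many anti-ETO peaks after knock-down and 6.94% as many anti-Flag peaks after knock-down. On chromosome 19 these shares were 10.5%, 26.9%, 9.79% and 19.9%, so such counts were more frequent among genes of that chromosome. Of the 9 regions, 5 were called in all 4 lists, 3 of them in the gene body and 2 inside SWSAP1, a DNA repair gene.

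The EPOR start region, chr19:11384164-11384607, was called at similar edges in all 4 lists, with 418 and 419 bp for anti-ETO and 444 and 376 bp for anti-Flag in control and knock-down. The regions at chr19:11380674-11381590 and chr19:11382698-11383750, 2.72 to 3.64 kb and 0.564 to 1.62 kb inside the gene, were also in the shared list. EPOR had 2 KD-Unique peaks. The first, chr19:11377141-11377707, lay at the far end of the gene, which the 567-bp anti-ETO peak crossed while the 480-bp anti-Flag peak lay inside, and the second, chr19:11373821-11374016, lay 650 bp from SWSAP1 with 196 and 185 bp. Neither had a control call with any antibody. By width, both calls at the second were narrower than most of their lists (percentiles 8.48 with anti-ETO and 9.78 with anti-Flag). The remaining regions were an anti-ETO call of 409 bp in the gene body and an anti-Flag call of 340 bp in the flank, both after knock-down only.

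IL6R, the interleukin-6 receptor, had 27 peaks, of which 20 were called with anti-Flag. Anti-ETO gave 2 peaks in control and 5 after knock-down, and anti-Flag gave 8 and 12. As many or more anti-Flag peaks were found at 4.27% of protein-coding genes in control and 3.14% after knock-down, whereas as many or more anti-ETO peaks were found at 25.9% and 10.5%. The start lay in a broad region, chr1:154404370-154408508, which also overlaps the antisense gene IL6R-AS1. Its widest peak in each list was 3081 bp (control anti-ETO), 3094 bp (control anti-Flag), 3810 bp (knock-down anti-ETO) and 3031 bp (knock-down anti-Flag), each at percentile 99.5 or above of its list by width. A second region in all 4 lists, chr1:154403323-154404196, ended 1147 bp before the start.

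IL6R had 3 KD-Unique peaks, the most among the 7 genes, and 3.34% of protein-coding genes had as many or more. They lay before the start at chr1:154399688-154400941 and at chr1:154463426-154464270 and chr1:154467010-154467481, near the far end of the gene. All 3 sites already had an anti-Flag call in control and gained an anti-ETO call after knock-down, of 1197, 830 and 339 bp. In control their anti-Flag calls covered 918, 547 and 422 bp, and after knock-down 875, 307 and 240 bp. The other 5 regions were anti-Flag calls only, 4 after knock-down and 1 in control, between 222 and 402 bp wide, and 1 of them lay inside the neighbouring gene SHE.

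The 6 KD-Unique peaks of these genes therefore came from 3 kinds of site. At 3 (all IL6R) anti-Flag had a call in control, at 1 (KIT) anti-ETO had one, and at 2 (both EPOR) neither had. Among all merged regions called with both antibodies after knock-down, 2597 (7.29% of all regions) had control anti-Flag only. Another 268 (0.752%) had control anti-ETO only, and 1854 (5.2%) had neither. The 3 kinds thus stood in the same order of size over all regions, and the split is not particular to the receptor genes. Promoter windows overlapped a peak at 3 of the 8 receptor promoters with control anti-ETO, 3 with control anti-Flag, 4 with knock-down anti-ETO and 3 with knock-down anti-Flag. Over all protein-coding promoter windows these shares were 28.7%, 28.8%, 34.7% and 21.2%. Shared peaks overlapped 2 of the 8 (22.1% of all windows), C-Unique peaks 0 (5.55%) and KD-Unique peaks 1, at KIT (2.77%). With 8 windows these counts are too small to set apart from the shares over all promoters.

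The receptor regions called in both conditions by 1 antibody were also compared in the number of bases called. With anti-Flag, all 13 such regions were narrower after knock-down, with ratios of knock-down to control from 0.258 (CSF1R) to 0.953 (IL6R) and a median of 0.790. Of all 12870 regions called with anti-Flag in both conditions, 60.7% were narrower, with a median ratio of 0.933. With anti-ETO, 7 of 13 receptor regions were wider after knock-down, 5 narrower and 1 equal, with a median ratio of 1.00 and a range from 0.658 (EPOR) to 2.52 (the KIT start). Some of these changes were of a few bases only. Such were 257 to 262, 759 to 760 and 418 to 419 bp at EPOR (wider) and 570 to 567 bp at CSF3R (narrower). Of all 11992 such anti-ETO regions, 76.0% were wider, with a median of 1.21. Among regions called in all 4 lists, anti-Flag calls were narrower at 10 of 10 receptor regions and at 69.5% of all, and anti-ETO calls wider at 5 of 10 and at 81.3% of all. The 5 include the EPOR regions that widened by a few bases only. The 13 anti-Flag regions comprise 5 of EPOR, 5 of IL6R, 2 of KIT and 1 of CSF1R and come from the same pair of lists, so they are not 13 independent measurements. Anti-Flag peaks were narrower after knock-down in the lists as a whole (median width 364 against 416 bp). The depth behind each list is not given in the sources used here, and its part in these widths was not tested.

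**Figure D4:**
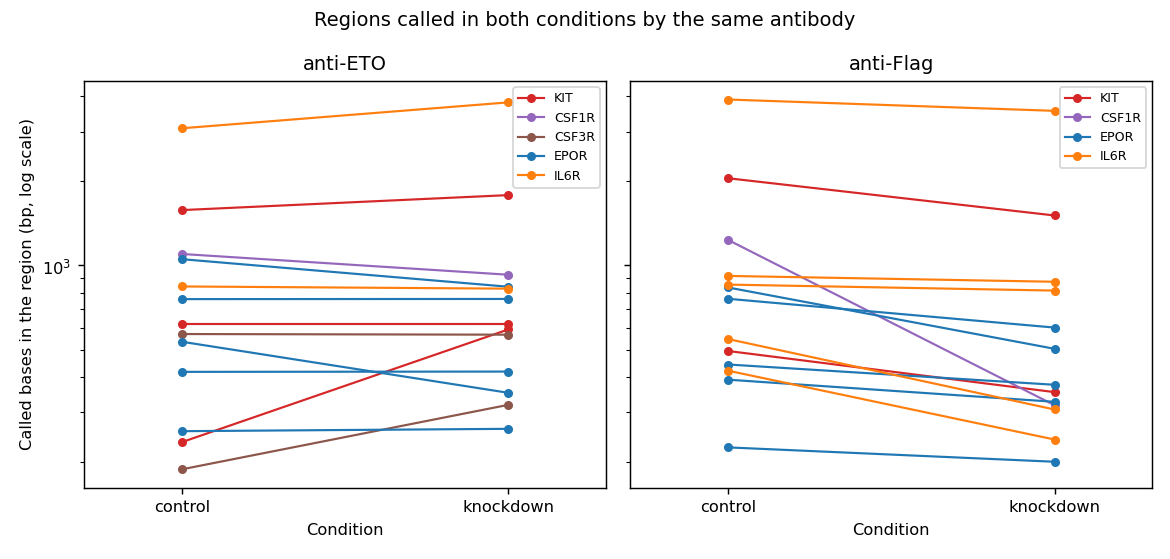
Bases called in each receptor region (y axis, bp, log scale) in control and after knock-down, for anti-ETO (left, 13 regions) and anti-Flag (right, 13 regions), with 1 line per region coloured by gene. Every anti-Flag line slopes down, by most at CSF1R (1233 to 318 bp), whereas anti-ETO lines go both ways, rising most at the KIT start (235 to 592 bp).

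Recovery of single peaks was compared in the same way. All 14 control anti-ETO peaks at the receptor genes overlapped an anti-ETO peak after knock-down (95% Wilson interval 78.5 to 100%), against 91.0% of all control anti-ETO peaks. With anti-Flag, 15 of the 20 peaks in control (75.0%, 53.1 to 88.8) were found again after knock-down, against 62.1% over all. In the other direction, 13 of 21 anti-ETO peaks (61.9%, 40.9 to 79.2) and 16 of 24 anti-Flag peaks (66.7%, 46.7 to 82.0) called after knock-down had a counterpart in control, against 55.7% and 59.2%. Within a condition, 12 of 14 control anti-ETO peaks had an anti-Flag peak (85.7%, 60.1 to 96.0, against 89.6% of all), as did 16 of 21 after knock-down (76.2%, 54.9 to 89.4, against 63.2%). Of these 6 shares, each interval contained the share over all peaks.

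Other genes of the same pathways were counted by the same rule, in 5 groups by role with 52 genes in all. Of 12 ligand genes, 2 had a control anti-ETO peak and 5 a control anti-Flag peak, and 4 and 3 after knock-down. KITLG, CSF1, EPO and IL6, which encode the ligands of KIT, CSF1R, EPOR and IL6R, had no peak in any of the 4 lists. IL34 had none either. Such an absence was common, as 41.6% of protein-coding genes had no peak in any of the 7 lists. FLT3LG, the FLT3 ligand gene, had 7 and 6 control peaks (anti-ETO and anti-Flag) and 6 and 4 after knock-down, with 1 C-Unique and 1 KD-Unique peak. CSF3, the ligand gene of CSF3R, had 1 anti-Flag peak in control and 1 anti-ETO peak after knock-down. Of the ligand genes of the receptors with CSF2RB, CSF2 and IL3 had 1 control anti-Flag peak each, and IL5 had 1 anti-ETO peak after knock-down. THPO had 2 and 3 control peaks and 2 and 4 after knock-down, and IL11 had 2 anti-Flag peaks after knock-down. Of 13 further receptor genes and subunits, 5 and 4 had a control peak (anti-ETO and anti-Flag) and 8 and 4 one after knock-down. Both groups lay below the share of all genes in the 4 single-antibody lists, except for the further receptors with anti-ETO after knock-down (61.5%).

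The other 3 groups hold genes that act inside the cell. All 10 genes of the group of JAK kinases and STAT factors had an anti-ETO peak in both conditions, and 8 of them an anti-Flag peak in each. Of 7 adaptor genes, 6 had an anti-ETO peak in control and 7 after knock-down, and 7 and 5 had an anti-Flag peak. Of 10 inhibitor genes, 9 had an anti-ETO peak in each condition, and 9 and 8 an anti-Flag peak. Over the 52 genes together, 32 (61.5%) had a control anti-ETO peak, against 47.6% of all protein-coding genes, and 33 (63.5%) a control anti-Flag peak, against 50.2%. After knock-down 38 (73.1%) had an anti-ETO peak, against 53.8%, and 28 (53.8%) an anti-Flag peak, against 42.2%. No test of these differences was made.

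**Figure D5:**
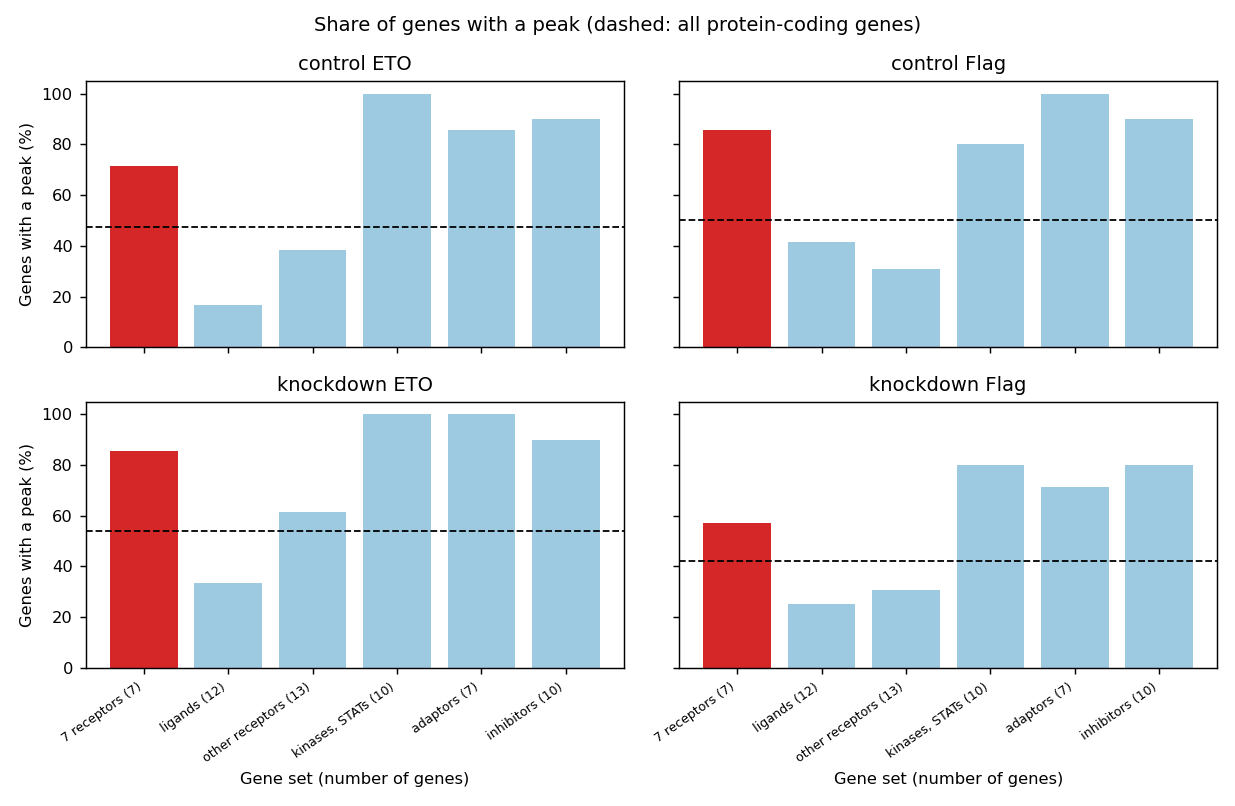
Percent of genes with a peak in the body or within 10 kb (y axis) for the 7 receptor genes (red) and 5 groups of pathway genes (blue, number of genes in brackets), in the 4 single-antibody lists, with the share over all protein-coding genes as a dashed line. JAK and STAT, adaptor and inhibitor genes stand above the line in all 4 lists, at 71.4% or more, and ligand genes stand below it.

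KD-Unique peaks occurred at 14 of the 52 pathway genes (26.9%, against 18.4% of all protein-coding genes) and C-Unique peaks at 16 (30.8%, against 16.9%). Both kinds were found at FLT3LG, STAT3, GRB2, PIK3CD, SH2B3 and PTPN6. Genes with KD-Unique peaks and no C-Unique one included JAK3, TYK2, STAT5A, STAT5B and STAT6, and the adaptors SHC1 and PIK3R1. Genes with C-Unique peaks alone included CSF2RA, IL6ST and IL2RG, STAT4, GAB2 and SOS1, and the inhibitors CISH, DUSP6 and SPRY2. GRB2, the adaptor that links receptor tyrosine kinases to RAS, had the most KD-Unique peaks of the 52 genes (9), with 41 anti-Flag peaks after knock-down and 19 in control. How common such counts are among all genes, or among those of its chromosome, was not examined.

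Presence or absence over the 7 lists was the same at KIT, EPOR and IL6R, with a peak in all but the C-Unique list, and 2146 other protein-coding genes (10.7%) had that pattern, among them JAK3, PIK3R1 and SHC1. The CSF1R pattern, without any unique peak, was shared in all 7 lists by 3217 genes (16.1%), such as CBL, PDGFRA and SOCS1. The CSF3R pattern was shared by 1203 genes (6.02%). Of the pathway genes, 5 had it: the receptor genes CSF2RA, IL2RG and IL6ST, the adaptor SOS1 and the inhibitor SPRY2. The FLT3 pattern was the rarest of the 7, with 302 genes (1.51%), including CSF3 and IRS2. CSF2RB shared its lack of peaks with CSF1, EPO and GHR.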

How the data were processed

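The authors deposited 9 interval lists (chromosome, start and end, no score), of which 7 were used: 4 for 1 antibody in 1 condition and the shared, C-Unique and KD-Unique lists. Per the submitters' processing notes, fastp 0.19.5, Bowtie2 2.3.5, MACS2 2.2.5 and HOMER 4.8 were used with the builds hg38 and sacCer3; the roles, the threshold, the use of IgG and the handling of replicates are not given in the sources used here. Libraries were planned at about 40 M reads of 75 bp. Starts are counted from 1.

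Peaks were assigned to RefSeq genes of GRCh38.p14 by an overlap of at least 1 bp with the gene body and 10 kb on either side, and peaks of the 4 lists were merged by the same overlap (Python 3.11.15, pandas 2.3.3, statsmodels 0.14.6). The functions were tested on simulated intervals. Exon structure was not used, and sequences under peaks away from promoters were not analysed here. The shares of regions by number of lists and of peaks found again carry 95% Wilson intervals, and the other shares carry none. No test was made, since there is 1 list per group. The 7 genes and the pathway list were chosen with earlier results of these data known. All 7 genes are named with their peaks. Pathway genes are named where they have a C-Unique or KD-Unique peak, or, up to 3 in alphabetical order, where they match a receptor gene in all 7 lists; some that meet this rule are not reported here. Neighbours are named where a peak overlaps them or lies nearer to them than to the receptor gene. Ligand genes without a C-Unique or KD-Unique peak and the group totals were named after their values were seen. Bases called per region were compared after the lists were seen.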

Additional observations from a re-analysis of the deposited data

How the results depend on the processing

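Other windows, a placement by peak centre, the wider 50% of each list and knock-down lists reduced to their widest peaks at control length were tried; 48 of 64 values stayed within 1.5 times the reported one (or, for a share, within its interval). With the gene body only, peaks at the 7 genes numbered 9 (control anti-ETO), 13 (knock-down anti-ETO) and 14 (knock-down anti-Flag), and C-Unique peaks 0 at 0 genes. Within 50 kb they numbered 35 (control anti-Flag), 36 (knock-down anti-ETO), 55 (knock-down anti-Flag), 5 C-Unique at 3 genes and 12 KD-Unique, and 19.7% of 66 regions were called in all 4 lists, below the 24.8% of all regions. With the wider 50% of each list, they numbered 9 (control anti-ETO), 13 (knock-down anti-ETO), 9 (knock-down anti-Flag) and 4 (shared). In the reduced knock-down lists EPOR kept 5 of 8 anti-ETO peaks, and CSF3R 1 of 3. A wider window takes in more bases and a shorter list holds fewer peaks by construction. KIT had 3 peaks with each antibody in the reduced lists too, and FLT3 had 1 with anti-ETO. With the wider 50% of each list, however, KIT kept only 2 of 3 control anti-ETO peaks and 1 of 3 anti-Flag peaks after knock-down. Its 189-bp anti-Flag peak at the start (percentile 11.1) was among those dropped. KIT kept 3 peaks with control anti-Flag and with anti-ETO after knock-down. No paired analysis was possible because each group has 1 list with no replicate, and no replicate could be left out. Depth is unknown, so it limits every missing call.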

Other observations

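Peaks called separately sometimes shared an exact edge. At the 7 genes, 4 of the 14 control anti-ETO peaks that overlapped an anti-ETO peak after knock-down began at the same base (28.6%), against 7.39% of all 12977 such peaks, and 1 also ended at the same base (7.14%, against 0.663%). Of the 15 overlapping anti-Flag pairs, 0 began at the same base, against 5.09% of all. These shares rest on few peaks and are given as values only.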
